A study of Mus musculus with 8 samples.

Results

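The secretory genes Sbp, Sbpl, Spink1 and Msmb were followed across 8 prostates of NOD mice, a strain that develops autoimmune disease. They are 4 of the 54532 genes in the deposited count table and were found there by matching Ensembl identifiers to the GENCODE M21 annotation. The 4 genes were chosen by their share of the counts and their spread between mice, with earlier results of these counts known, so that their levels, shares, co-variation and group differences are given as descriptions. All 4 passed the filter on low counts.

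The control group (animals 1, 3, 65 and 69) received the PBS vehicle, and the etanercept group (animals 17, 19, 50 and 52) received etanercept, a fusion protein of a TNF receptor that captures TNF. The dose was 4 mg/kg, injected 2 times weekly over 5 weeks. All animals were NOD males whose tissues were taken at 30 weeks of age, no transgene or deletion was named for either group, and the labels do not give the diabetic state of an animal. Poly(A)-selected RNA of prostates that the series' design text calls whole was sequenced as paired reads of 150 nt, and the number of reads per gene was deposited. The labels give neither a batch nor which lobes, and how much of each, went into a sample. Ventral lobes of NOD mice were also dissected and weighed in the study, and whether tissue of any lobe was taken from the sequenced prostates is not given in the sources used here, so that different lobe content and a different level within a lobe cannot be told apart. In bulk tissue, fewer cells of a type and less RNA per cell cannot be told apart.

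The mouse prostate consists of paired ventral, lateral, dorsal and anterior lobes, whose luminal cells secrete different proteins into the seminal fluid under the control of androgens. Spermine binding protein, encoded by Sbp, is a major androgen-dependent secretory protein of the ventral lobe and binds the polyamine spermine, and Sbpl encodes a protein similar to it. Spink1 encodes a Kazal-type inhibitor of trypsin-like proteases, known from the pancreas as well as from the male accessory glands. Msmb encodes beta-microseminoprotein, a small cysteine-rich protein of prostatic secretion.

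Sbp and Sbpl lie near each other on chromosome 17 of GRCm38, with Sbp (ENSMUSG00000024128) on the plus strand from 23941672 to 23945607 and Sbpl (ENSMUSG00000024125) on the minus strand from 23953084 to 23955274. Their 3′ ends face each other with 7476 bases between them. The coding sequences, of 600 bases in Sbp and 699 bases in Sbpl, were identical at 562 of 594 ungapped aligned positions (94.6%). Of the 31-base words in the transcripts of Sbp, 26.6% also occurred in Sbpl, and 48.1% of those of Sbpl occurred in Sbp. The longest stretch shared by a transcript of each gene was 159 bases, more than the read length of 150. Reads were paired, and whether the other read of a pair told the genes apart was not examined. The most similar coding stretch of one read length, spread over 3 exons in each gene, is shown because a read from it carries a single base that tells the genes apart, which is in capitals.
Sbp coding bases 26 to 175: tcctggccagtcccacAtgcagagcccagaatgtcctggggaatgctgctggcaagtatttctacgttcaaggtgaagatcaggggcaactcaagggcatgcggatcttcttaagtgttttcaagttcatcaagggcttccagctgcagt
Sbpl coding bases 71 to 220: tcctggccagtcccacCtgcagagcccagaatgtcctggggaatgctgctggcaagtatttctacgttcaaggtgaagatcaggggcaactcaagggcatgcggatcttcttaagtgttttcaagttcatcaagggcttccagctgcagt
No 31-base word of Spink1 occurred in another gene, and 1 of 559 words of Msmb did. How reads that fit both Sbp and Sbpl were counted is not given in the sources used here, so the division of counts between this pair is uncertain, and its part in the close relation of their counts was not tested.

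The sequences upstream of the first exons that GENCODE M21 annotates for Sbp and Sbpl are shown because the counts of both genes moved together between mice. They were taken from the RefSeq promoter windows of GRCm38.p6, which matched 2 of the 4 genes, and capitals mark a TATAAA box.
Sbp, chr17:23941428-23941671, plus strand: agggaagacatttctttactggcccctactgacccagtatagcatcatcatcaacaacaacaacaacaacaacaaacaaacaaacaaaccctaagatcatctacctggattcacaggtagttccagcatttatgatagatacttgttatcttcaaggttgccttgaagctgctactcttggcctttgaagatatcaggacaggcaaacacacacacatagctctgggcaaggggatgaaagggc
Sbpl, chr17:23955275-23955523, minus strand: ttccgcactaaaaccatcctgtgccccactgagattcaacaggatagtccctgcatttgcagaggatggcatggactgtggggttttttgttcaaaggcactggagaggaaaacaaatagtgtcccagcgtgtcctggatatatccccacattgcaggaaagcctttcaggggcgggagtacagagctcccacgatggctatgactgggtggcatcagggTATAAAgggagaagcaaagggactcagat
The TATAAA box, searched on both strands, occurred in the Sbpl stretch and in 13.6% of all 32851 promoter windows. The steroid receptor half-site AGAACA or its complement TGTTCT occurred in neither stretch, in 1 of the 3 RefSeq windows of Sbp and in 18.97% of all windows. Between the promoter windows the resemblance was short: the best local alignment of this Sbp window with the Sbpl window covered 24 aligned bases, of which 22 were identical.

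Total counts ranged from 13760669 to 25178942 per mouse, and the 10 genes with most counts took between 15.6% and 31.1% of them. Secretory genes of the seminal vesicle, the gland attached to the prostate, held 9.41% of the counts in etanercept 17, 0.367% in control 69 and at most 0.0644% in the other 6 mice. Luminal epithelial genes, including the keratins Krt8 and Krt18, were present in every mouse with a summed level of 3256 to 4413 CPM (CPM, counts scaled to library size after TMM).

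Sbp was the gene with most counts in the series, with 8.67% of all counts of the 8 mice. It stood at 1545, 63775, 15609 and 225361 CPM in controls 1, 3, 65 and 69. In etanercept 17, 19, 50 and 52 the levels were 1615, 173791, 179901 and 55855 CPM. One mouse of each group, control 1 and etanercept 17, was thus far below all others, and the groups overlapped over nearly their whole range. The highest level was 146 times the lowest. By count, Sbp ranked first among all genes in 4 mice, second in 2, and 46th and 53rd in control 1 and etanercept 17. The gene with most counts in those 2 mice, and in control 65 and etanercept 52, was 9530053A07Rik.

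**Figure D1:**
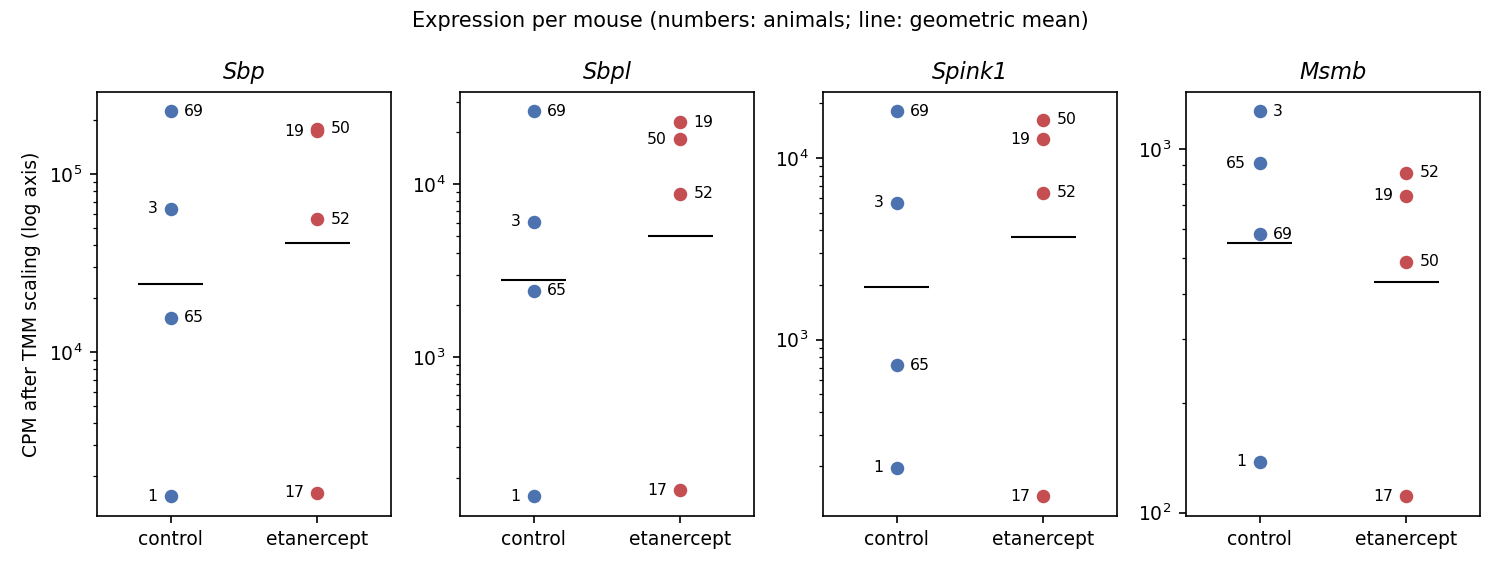
Level of each gene in each mouse, as CPM after TMM scaling on a log axis, with 1 point per mouse labelled by animal number and a line at the geometric mean of each group of 4. Animals 1 and 17 are lowest for every gene, and for Msmb the highest animal is 3 and not 69.

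Sbpl showed the same order of mice apart from exchanges between neighbours. Its levels were 156, 6063, 2425 and 26442 CPM in controls 1, 3, 65 and 69 and 169, 22848, 18271 and 8831 CPM in etanercept 17, 19, 50 and 52. The highest was 169 times the lowest. The ratio of Sbp to Sbpl counts stayed between 6.32 (etanercept 52) and 10.5 (control 3), a 1.66-fold range, with a mean of 8.84 ± 1.80 without and 8.33 ± 1.66 with etanercept (SD, n = 4 each).

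Spink1 (ENSMUSG00000024503; GRCm38 chromosome 18, 43728082 to 43737557, minus strand) shared no 31-base word with Sbp, and its counts do not carry the ambiguity of the Sbp and Sbpl pair. Its levels were 197, 5685, 723 and 18108 CPM in controls 1, 3, 65 and 69. In etanercept 17, 19, 50 and 52 they were 137, 12676, 16281 and 6440 CPM. The protease inhibitor therefore spanned a 132-fold range, with the same 2 mice at the bottom and control 69 at the top. Sbp had between 7.83 (control 1) and 21.6 (control 65) times the counts of Spink1, a 2.76-fold range, since Spink1 was low for its Sbp level in control 65.

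Msmb (ENSMUSG00000021907; GRCm38 chromosome 14, 32142023 to 32158370, plus strand) followed another order. It stood at 138, 1268, 913 and 582 CPM in controls 1, 3, 65 and 69 and at 111, 743, 489 and 859 CPM in etanercept 17, 19, 50 and 52. Control 1 and etanercept 17 were again lowest, but the 3 mice with most Sbp had less Msmb than the 3 mice with intermediate Sbp. Its range was 11.4-fold. The ratio of Sbp to Msmb counts accordingly spread over 34.6-fold, from 11.2 in control 1 to 387 in control 69.

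Per exon length, as FPKM after TMM scaling, the median over the 8 mice was 40663 for Sbp, 8433 for Sbpl, 8316 for Spink1 and 1125 for Msmb. Sbp was the highest of the 4 in every mouse, from 1050 FPKM in control 1 to 153203 FPKM in control 69. Sbpl and Spink1 exchanged places between mice: Spink1 was higher in controls 1 and 3 and in etanercept 50, and Sbpl in the other 5, so the levels of these neighbours overlapped. Msmb was the lowest of the 4 in 5 mice. In control 1 and etanercept 17 the 3 genes other than Sbp lay close together, at 177 to 271 FPKM and 188 to 192 FPKM, and in control 65 Spink1 was lowest, at 992 FPKM. Exon length was the union of all annotated exons, 1471 nt for Sbp, 883 nt for Sbpl, 729 nt for Spink1 and 589 nt for Msmb.

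The 4 genes together made up 0.224%, 8.19%, 2.03% and 24.8% of all counts in controls 1, 3, 65 and 69. In etanercept 17, 19, 50 and 52 they made up 0.197%, 19.98%, 20.7% and 7.30%. These genes thus supplied a large part of the counts in 3 mice and almost none in 2. The mean share was 8.81 ± 11.2% without and 12.03 ± 9.998% with etanercept (SD, n = 4 each), so that the difference was smaller than the SD of either group. Without control 69, the mean of the other 3 control mice was 3.48 ± 4.18%. Sbp alone held 20.7% in control 69 and 0.157% in etanercept 17. Counting error was small beside this spread: the Wilson 95% interval for Sbp in control 1 was 0.168% to 0.172%.

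**Figure D2:**
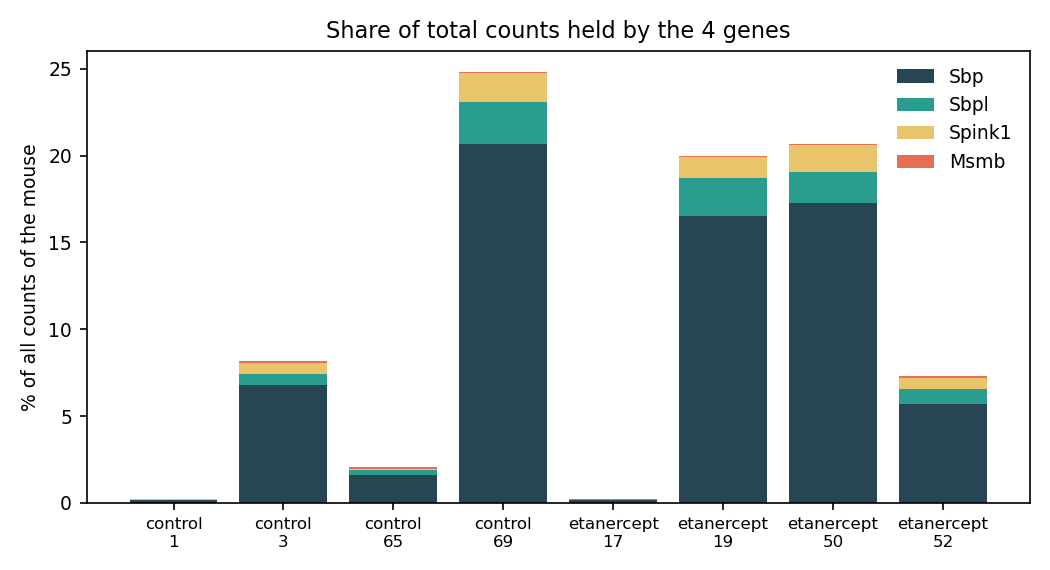
Percentage of all counts of each mouse that fell on Sbp, Sbpl, Spink1 and Msmb, stacked from 0. The bars reach 24.8% in control 69 and stay at 0.224% and 0.197% in control 1 and etanercept 17, and Msmb is a thin band in every mouse.

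Few genes varied as much between mice of 1 group. The pooled within-group SD of log2(CPM + 1) was 3.14 for Sbp, 3.21 for Sbpl and 3.07 for Spink1, which ranked 9, 8 and 10 of the 15472 genes tested, where the median gene had 0.44. Msmb, at 1.38, ranked 351. These ranks are a description, since the genes were chosen with their variation known.

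Across the 8 mice, log2(CPM + 1) of Sbp correlated with that of Spink1 at r = 0.989 and rho = 0.952 and with that of Sbpl at r = 0.996 and rho = 0.952. Without control 1 and etanercept 17, the 2 mice farthest from the median, r was 0.975 and 0.980 over the remaining 6 mice. The relation of Sbp, Sbpl and Spink1 thus did not rest on the 2 lowest mice. Genes of 1 mouse share a library and its count total, and the 6 pairs of genes were described without a test.

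Msmb departed from the other 3 genes. Its r with Sbp was 0.769 over 8 mice while rho was 0.238, and over the 6 mice without control 1 and etanercept 17 r was −0.65 and rho −0.77. The same turn was seen with Sbpl (r 0.793 over 8 mice and −0.69 over 6) and with Spink1 (r 0.723 and −0.58). The positive relation of Msmb rested on the 2 lowest mice, and among the others Msmb was lower where Sbp was higher. A single label for all 4 genes as ventral lobe genes was therefore not matched by their levels among the 6 mice. These 6 were set apart after seeing the data. Sbp, Sbpl and Spink1 moved together over all 8 mice, and Msmb shared with them only the low level of control 1 and etanercept 17.

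**Figure D3:**
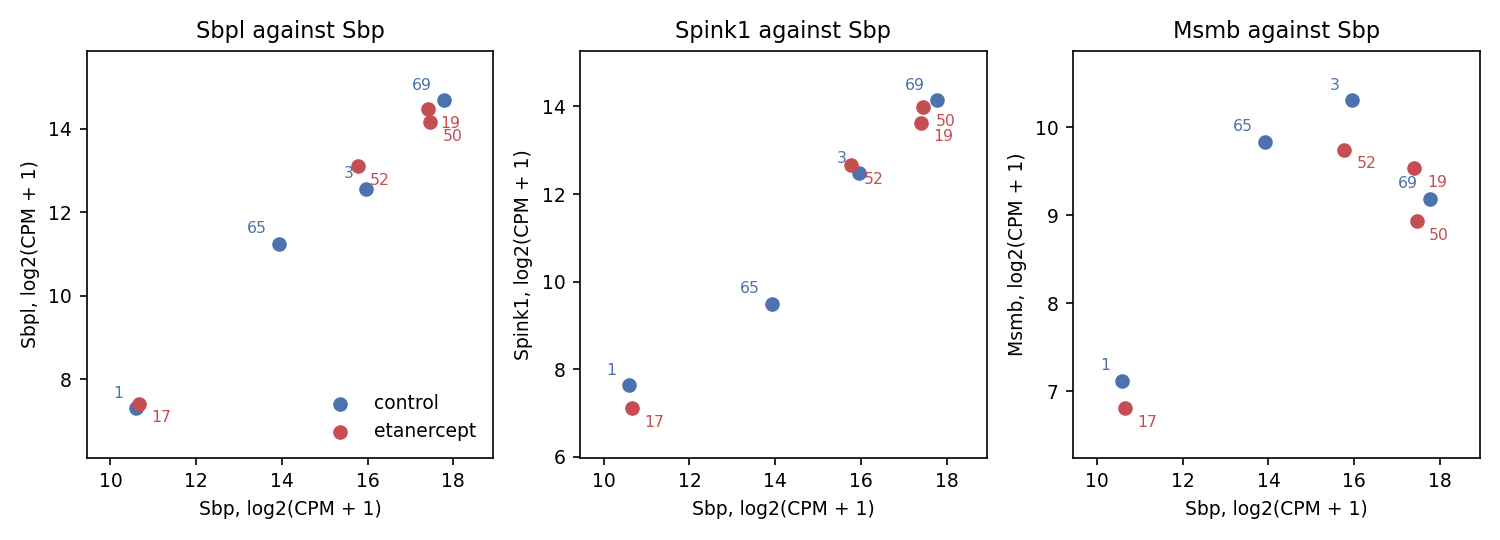
Sbpl, Spink1 and Msmb against Sbp, as log2(CPM + 1), with 1 point per mouse labelled by animal number, and points and numbers coloured by group. Sbpl and Spink1 rise with Sbp over the whole range, whereas Msmb is lowest in animals 1 and 17 and declines with Sbp among the other 6.

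In control 1 and etanercept 17, the summed level of dorsal and anterior secretory genes lay within that of the other mice. That sum mixed genes that ran against Sbp with genes that ran with it. Genes listed for the dorsal and anterior lobes, including probasin (Pbsn) and transglutaminase 4 (Tgm4), summed to 14041 CPM in control 1 and 16480 CPM in etanercept 17, against 10656 to 23534 CPM in the other mice. Probasin itself stood at 9156 CPM in control 1 and 1092 CPM in control 69 and ran against Sbp (r −0.76, and −0.84 over the 6 mice). The renin gene Ren1 also ran against Sbp (r −0.77). Of the same list of 7 genes, Azgp1, which encodes a zinc-binding secreted glycoprotein, and 9530002B09Rik ran with Sbp, at r = 0.976 and r = 0.921. Within the sum, 9530002B09Rik held 11123 of 13861 CPM in control 69 and 1752 of 14041 CPM in control 1. The list thus did not behave as 1 unit, and its sum does not show that these genes were unchanged.

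Seminal vesicle genes differed between the 2 mice that were lowest for Sbp. They summed to 97035 CPM in etanercept 17 and 1.44 CPM in control 1, and 4 and 8 of the 10 genes of that list were at 0 there. Control 69, highest for Sbp, had 3996 CPM. Basal cell genes (Krt5, Krt14, Krt15, Krt17 and Trp63) summed to 376 CPM in control 1 and 206 CPM in etanercept 17 against 127 to 306 CPM in the other mice, and had a median r with Sbp of −0.72. The part of either list in the levels of the 4 genes was not tested.

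Genes of the polyamine pathway and androgen-responsive genes were read from the same counts. Among all 15472 tested genes, 7.53% had r of at least 0.8 with Sbp and 3.99% had r of at most −0.8. Of 8 genes of polyamine metabolism, 3 had r of at least 0.8: Odc1, ornithine decarboxylase and the first enzyme of the pathway (r = 0.925), Amd1, which supplies the aminopropyl donor (r = 0.909), and Azin1, an activator of ornithine decarboxylase (r = 0.804). Over the 6 mice without control 1 and etanercept 17, r was 0.953, 0.832 and 0.632, so that Azin1 no longer reached 0.8. Odc1 stood at 21.3 CPM in control 1 and 235.8 CPM in control 69. Spermine synthase, Sms, had r = −0.61 and so was not among the genes that ran with Sbp. Of 9 genes known to respond to androgens, 2 had r of at least 0.8, Fkbp5 and again Odc1. In that list 0 genes had r of at most −0.8, and the median r was 0.25. Fkbp5 had r = 0.965 (0.872 over the 6 mice), at 70.9 CPM in control 1 and 618 CPM in control 69. Ndrg1, from the same list, ran against Sbp (r = −0.76, and −0.64 over the 6 mice).

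Of 10 other genes of the Spink family, 3 passed the filter on low counts. Spink5, which encodes an inhibitor with many Kazal domains, ran with Sbp (r = 0.928, and 0.979 over the 6 mice), from 32.9 CPM in etanercept 17 to 7273 CPM in control 69. Spink11 had r = 0.894 over 8 mice and 0.403 over 6, at no more than a few CPM. Spink8 ran the other way (r = −0.91). Trypsin genes, whose products Spink1 inhibits in the pancreas, were at 0 counts in all mice for 6 of 6 genes listed, where 3 counts would have been a share of at most 2.18e-05%. None of 6 pancreatic acinar genes passed the filter, and 3 had no count in any mouse. Pnliprp1, which encodes a lipase-related protein of the pancreas and was named after its values were seen, averaged 665 CPM without and 131 CPM with etanercept (log2 fold change −2.34, 95% interval −5.00 to 0.31, adjusted p = 0.774 in edgeR).

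**Figure D4:**
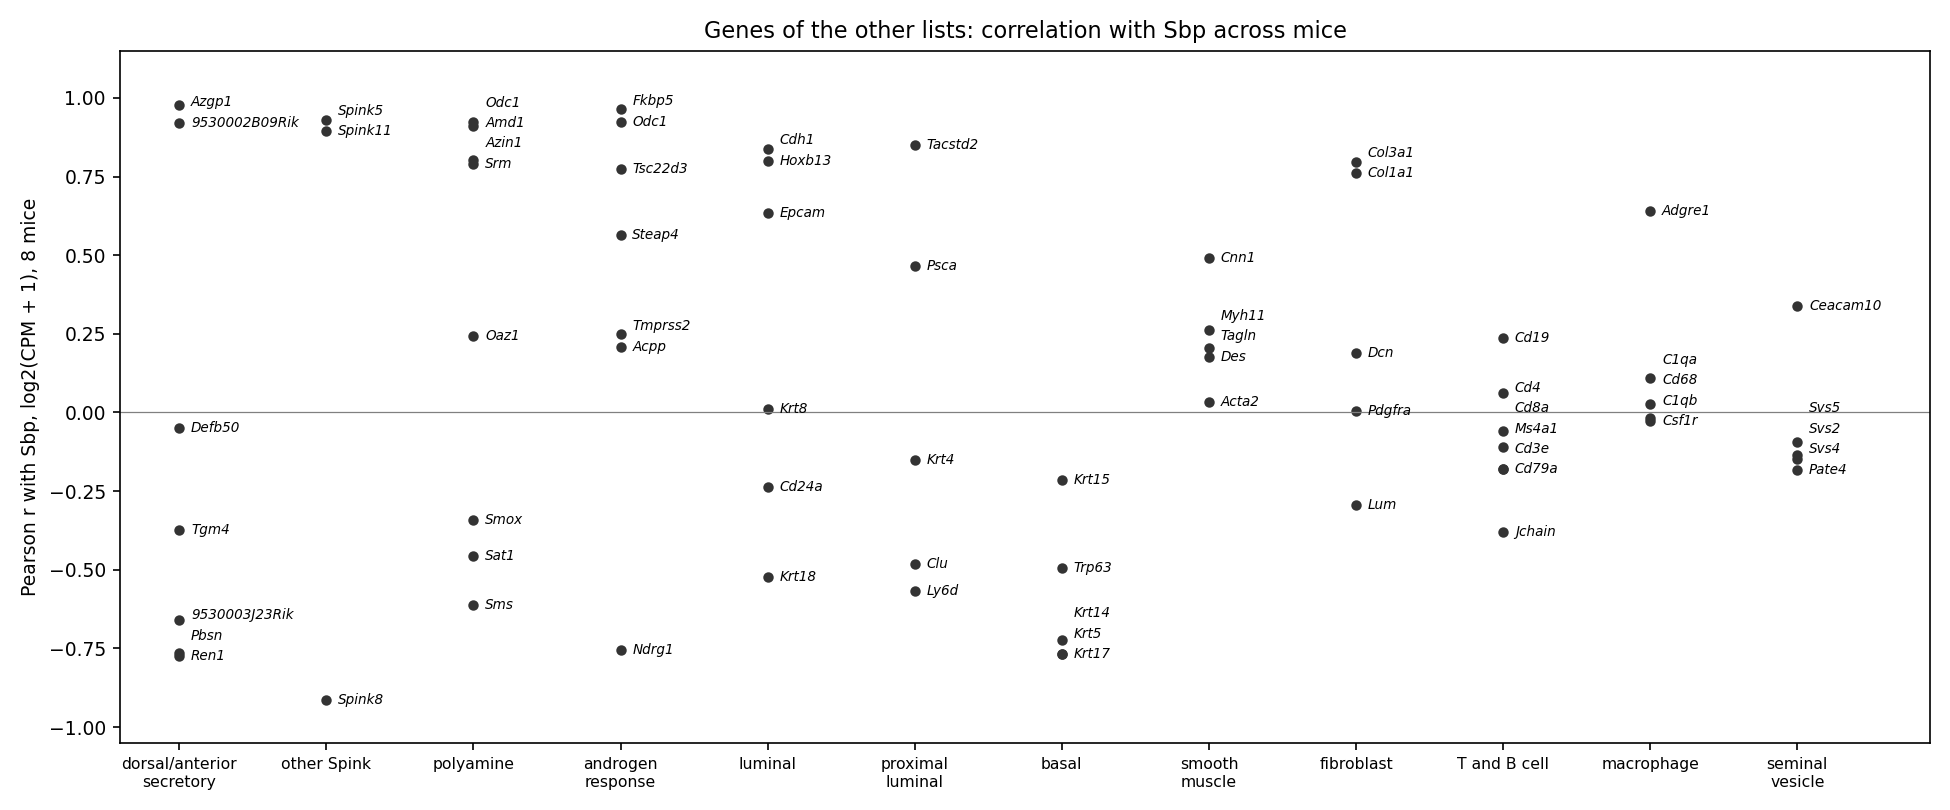
Pearson r with Sbp over the 8 mice for tested genes of 12 lists, 1 point per gene, with names set slightly apart where points crowd. Dorsal and anterior secretory genes, other Spink genes and polyamine genes lie on both sides of 0, whereas the 5 basal cell genes all lie below it.

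Among the 9416 genes with a mean of at least 10 CPM, 342 others had r of at least 0.9 with Sbp, 311 with Sbpl, 264 with Spink1 and 14 with Msmb. The genes most like Sbp were Sbpl (r = 0.996), Tmem139 (r = 0.994) and Pdzk1, a scaffold protein of apical membranes (r = 0.994). Cul5 and Tmem139 were among the 3 most like Sbpl. For Spink1 the most similar were the transcription regulator Dach1 (r = 0.996), Rnf186 (r = 0.993) and Nbn (r = 0.990). The profile of Msmb was closest to those of Nfkb1 (r = 0.95), Ybx1 (r = 0.946) and Gpatch11 (r = 0.937), none of which was among those most like the other 3 genes.

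The genes with the highest r to the mean standardised level of the 4 were Cul5, Dach2, Sec14l4, Suclg1, Eif3a, Pdzk1, Crabp1, Prom2, Slc30a6 and Abo, with r from 0.970 to 0.985. Several of these moved over a wide range: Crabp1, a retinoic acid binding protein, went from 3.26 CPM in etanercept 17 to 328 CPM in control 69, and the glycosyltransferase gene Abo from 9.48 to 1259 CPM in the same mice. Others moved little, such as Cul5, a ubiquitin ligase scaffold, at 20.8 to 36.7 CPM. The lowest r were those of Dynlrb1 (−0.99), Miga1, Mt1, Timm22 and Tecpr1. Mt1, the metal-binding metallothionein, stood at 2614 CPM in control 1 and 897 CPM in control 69. Among the 10 genes with most counts, 5430419D17Rik ran with Sbp (r = 0.907), whereas Prdx6, which encodes a peroxiredoxin (r = −0.87), and 9530053A07Rik (r = −0.76, 11984 to 92229 CPM) ran against it.

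The comparison of etanercept-treated with control mice asked whether TNF blockade altered prostate transcription. None of the 4 genes passed the threshold of 0.05 on the adjusted p of edgeR's quasi-likelihood test, against a background of 0% of the 15472 genes. With the same threshold on the unadjusted p the background was 6.62%, and 4.94% of genes had groups that did not overlap. With DESeq2's adjusted p it was 0.115%, of 18329 genes. All 4 genes were outside each of these sets.

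Sbp averaged 76572 ± 102709 CPM without and 102790 ± 88368 CPM with etanercept (SD, n = 4 each). The log2 fold change from edgeR was 0.42 (95% interval −2.73 to 3.58, adjusted p = 0.990). That interval reaches from a large decrease to a large increase, so that no size of effect in between could be told from the spread between mice. Sbpl had a log2 fold change of 0.51 (−2.55 to 3.58, adjusted p = 0.988 in edgeR) and Spink1 of 0.52 (−2.51 to 3.56, adjusted p = 0.987 in edgeR). For Msmb, the value was −0.40 (−1.94 to 1.14, adjusted p = 0.967 in edgeR), with 725 ± 481 CPM without and 550 ± 331 CPM with etanercept. The median log2 fold change of all tested genes was −0.01.

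Single mice decided the size of these differences. Without control 69, the log2 fold change rose to 1.93 for Sbp, 2.12 for Sbpl and 2.01 for Spink1, and without control 1 that of Sbp was 0.00. Msmb moved from −0.76 without control 1 to 0.02 without control 3. When the lowest mouse of each group was left out together, the values were 0.43, 0.52, 0.53 and −0.40, close to those of all 8 mice. In the same groups, 5 of 5 adipocyte genes (median −3.46), 7 of 7 genes of T and B cells (−0.99), 5 of 5 macrophage genes (−0.79) and 5 of 5 basal cell genes (−0.63) had a log2 fold change below 0. All 5 smooth muscle genes had one above 0 (median 0.75), where 7588 of the 15472 tested genes lay above 0 and 7884 below. The 5 tested seminal vesicle genes also lay above 0 (median 3.96), in a list that was highest in etanercept 17. Other lists were mixed: 3 of 4 tested skeletal muscle, 4 of 5 proximal luminal, 3 of 5 fibroblast and 4 of 7 luminal genes lay below 0. No gene of these lists was called in edgeR, and their part in the values of the 4 genes was not tested.

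**Figure D5:**
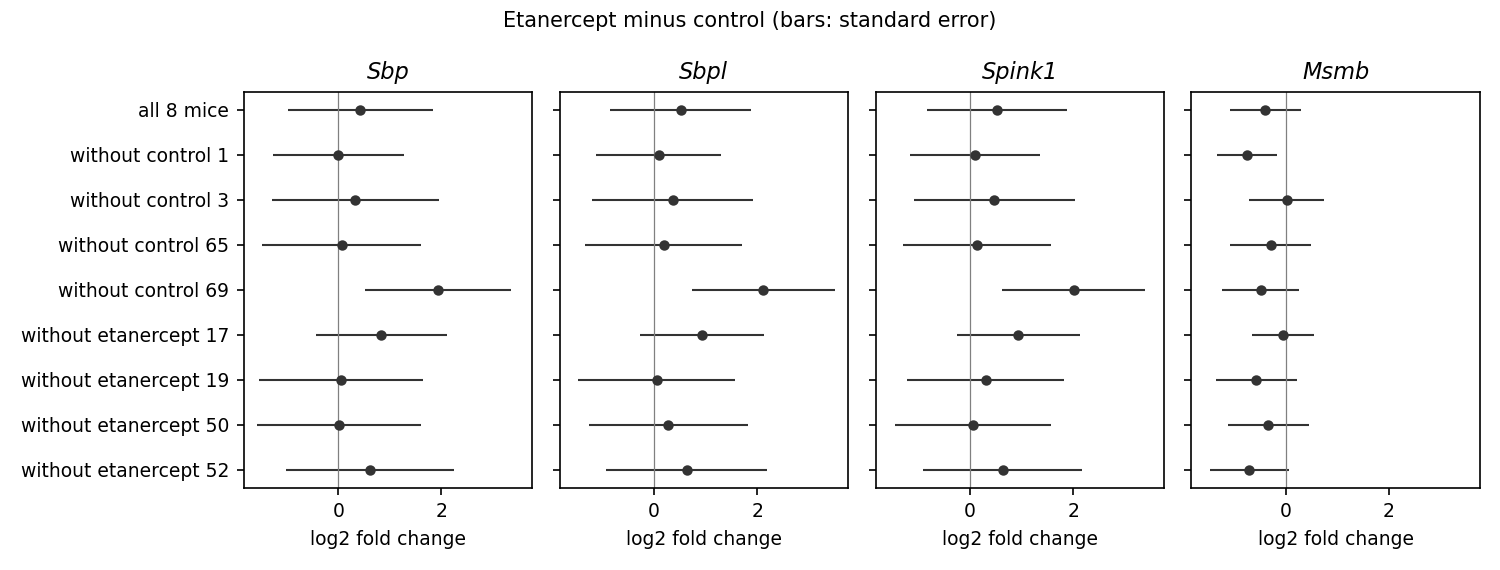
Log2 fold change of etanercept-treated over control mice from edgeR with all 8 mice and with each mouse left out, with bars of 1 standard error. The values for Sbp, Sbpl and Spink1 are at most 0.94 except without control 69, where they are 1.93 to 2.12.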

How the data were processed

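Total RNA of NOD prostates from 4 control and 4 etanercept-treated mice was made into poly(A)-selected libraries with a kit that does not mark strand. The submitters' processing notes name fastp, STAR 2.6.1d, featureCounts 1.5.0-p3, DESeq2 1.26.0 and mm10. The authors deposited whole-number counts per gene and mouse, without normalization. The annotation and the treatment of reads that map more than once are not given in the sources used here. Counts of 54495 of 54532 identifiers were named with GENCODE M21. Samples are single animals, numbered as in their labels.

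Counts were scaled with TMM (factors 0.917 to 1.10) and tested in edgeR 4.0.16 (R 4.3.3) with filterByExpr (minimum count 10), the quasi-likelihood test and Benjamini-Hochberg adjustment over 15472 genes. Correlations used log2(CPM + 1). Coding sequences and promoter windows were aligned with Biopython 1.88. The fit was tested on simulated counts. DESeq2 1.42.0, other scalings and filters and leaving out mice were alternatives. The 4 genes and all gene lists were chosen with earlier results of these data known. Named genes are the 4, list genes on which a result turns, the 10 highest and 5 lowest in r with the mean of the 4 (mean of at least 10 CPM), the 3 most like each, and the 10 with most counts. Pnliprp1 was named outside this rule, after its values were seen. Wilson intervals and floors (3 counts) cover counting error only, and edgeR's intervals include the spread between mice. Some genes of these lists are not reported here.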

Additional observations from a re-analysis of the deposited data

Results flagged for a closer look

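The ratio of Sbp to Msmb counts was 387 in control 69, far above the other 3 control mice; its gap to the nearest of them was 0.896 of the group's range, above Dixon's 95% critical value for 4 samples. Among the etanercept-treated mice the ratio was 368 in animal 50 and 234 in animal 19, so that 387 was not apart from all 8 mice. The same test marked the summed level of seminal vesicle genes in control 69, at 3996 CPM, and in etanercept 17, at 97035 CPM, each with a gap of 0.993 of its group's range. In all, 22 groups of 4 values were examined and 3 values stood out. For independent groups of normally distributed values, chance alone marks about 1 group in 20. The groups here share genes and were taken without a log, so that this rate need not hold. None of the levels of Sbp, Sbpl, Spink1 or Msmb was marked on the CPM scale.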

How the results depend on the processing

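DESeq2's Wald test called 21 genes, and 25 without control 1 and etanercept 17, where edgeR called 0 (1024 at an unadjusted p under 0.05); the cause was not tested. None of the 4 genes was called in 12 alternative settings or in 8 refits that each left out 1 mouse. These gave 80 values for the 4 genes, of which 78 kept the direction. The exceptions were Sbp without control 1 and Msmb without control 3. Leaving out single mice gave log2 fold changes of −0.0014 to 1.93 for Sbp, 0.054 to 2.12 for Sbpl, 0.057 to 2.01 for Spink1 and −0.76 to 0.016 for Msmb, with 0 genes called each time. The mean share ranged from 3.48% to 11.7% in control and 9.16% to 15.98% in etanercept-treated mice. Leaving out single mice, r with Msmb ranged from 0.624 to 0.851 for Sbp, 0.659 to 0.854 for Sbpl and 0.541 to 0.863 for Spink1, whereas r among Sbp, Sbpl and Spink1 ranged from 0.967 to 0.997. On CPM without the log, r with Msmb was 0.138 for Sbp, 0.155 for Sbpl and 0.145 for Spink1. Without control 1 and etanercept 17 it was −0.65, −0.69 and −0.58. With the animal number, grouped as below 20 or above 49, as a covariate, the log2 fold changes were 0.70, 0.90, 0.70 and −0.43. Removing these 2 mice and adding this covariate were chosen after seeing the data. No paired analysis was possible because the groups share no animal number. Depth was high for the 4 genes, which had at least 1906 counts in every mouse.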
